A study of Homo sapiens with 4 samples.

Results

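Chemokines are small secreted proteins that attract leukocytes by binding G-protein-coupled receptors on them. The 10 chemokine genes described here were CXCL8, CXCL1, CXCL2, CXCL3, CXCL5, CXCL10, CXCL11, CXCL16, CCL2 and CCL20. They are CXC and CC chemokines, chosen by name with earlier results of these data known. Other chemokine ligands were left out of this set and are described further below. Each of the 10 was read from 1 probe set, out of 18323 genes with a probe set of a single gene symbol. Their RNA was measured in HK1EBV and HK1, cell lines of nasopharyngeal carcinoma, a tumour of the epithelium behind the nose. The groups were HK1EBV with CAPE, HK1 with CAPE, HK1EBV with DMSO and HK1 with DMSO, with 1 single-colour array each and no replicate. CAPE (caffeic acid phenethyl ester, a phenolic compound of propolis known to inhibit NF-κB) was given at 110 µM and the solvent DMSO (dimethyl sulfoxide) at 0.1%, both for 24 h. HK1EBV is by its name HK1 with Epstein-Barr virus, but the labels used here give no viral genome, no clone and no age of the culture, and the virus was not measured here.

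In epithelial tumours CXCL8, CXCL1, CXCL2, CXCL3 and CXCL5 are known as attractants of neutrophils and of new vessels through the receptors CXCR1 and CXCR2. Their genes lie close together on chromosome 4 and are classic targets of NF-κB. CXCL10 and CXCL11 are induced by interferons and attract T cells through CXCR3. CXCL16 is made as a membrane protein and, once shed, binds CXCR6, while CCL2 attracts monocytes through CCR2 and CCL20 attracts cells that carry CCR6.

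The stretches before the start sites are shown for the genes whose values differed most between arrays, CXCL8, CXCL1 and CCL20, and for CXCL2 and CXCL3, close copies of CXCL1. Each is the 150 bases right before the RefSeq start, on the gene's own strand (GRCh38.p14). They are chr4:73740419-73740568 (plus) for CXCL8, chr4:73869243-73869392 (plus) for CXCL1, chr4:74099196-74099345 (minus) for CXCL2, chr4:74038690-74038839 (minus) for CXCL3 and chr2:227813692-227813841 (plus) for CCL20. Capitals mark the NF-κB letters GGAATTTCC and the AP-1 letters TGANTCA, on either strand.
CXCL8: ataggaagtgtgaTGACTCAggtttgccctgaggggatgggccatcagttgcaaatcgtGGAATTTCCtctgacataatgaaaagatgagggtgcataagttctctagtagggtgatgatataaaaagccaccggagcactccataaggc
CXCL1: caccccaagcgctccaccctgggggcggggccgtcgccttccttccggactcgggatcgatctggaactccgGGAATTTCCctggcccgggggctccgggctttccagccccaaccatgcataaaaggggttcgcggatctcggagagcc
CXCL2: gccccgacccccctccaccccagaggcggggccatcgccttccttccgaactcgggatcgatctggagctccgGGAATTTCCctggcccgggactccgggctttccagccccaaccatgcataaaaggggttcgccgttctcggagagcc
CXCL3: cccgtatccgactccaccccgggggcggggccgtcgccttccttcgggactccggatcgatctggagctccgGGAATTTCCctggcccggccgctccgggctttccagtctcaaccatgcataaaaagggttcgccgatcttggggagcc
CCL20: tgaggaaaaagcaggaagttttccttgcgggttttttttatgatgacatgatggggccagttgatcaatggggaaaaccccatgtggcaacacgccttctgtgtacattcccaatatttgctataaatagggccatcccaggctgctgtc

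The RefSeq table of promoters, from 250 bases before to 50 bases after each start, held 8 of the 10 genes, all but CXCL16 and CCL2. The letters GGAATTTCC were found on either strand in 7 of these 8 promoters, against 0.461% of all 35116 promoters in the table. They began 91 bases before the start in CXCL8, 90 in CXCL5, 78 in CXCL1 and CXCL3, 77 in CXCL2, 75 in CXCL11 and 176 in CXCL10, on the opposite strand in CXCL11 and CXCL10. The wider form GGANNTTCC, which contains these letters, was held by the same 7 promoters, against 4.56% of all promoters. CCL20 had no match to either form in this window. Other forms of the NF-κB site were not searched for, so this does not show that CCL20 lacks one. TGANTCA was found in CXCL8 and CXCL11 (7.71% of all promoters), the interferon-type letters GAAANNGAA in CXCL2, CXCL3 and CXCL10 (8.11%), and TATAAA in CXCL8, CXCL11 and CCL20 (11.5%). Aligned end to end, the CXCL1 promoter shared 82.5% of aligned positions with that of CXCL3 and 71.9% with that of CXCL2. The matches in CXCL1, CXCL2 and CXCL3 are therefore not separate from one another. These matches are a description of the letters, and binding was not measured.

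The arrays had medians of 2.23 to 2.27 on the log2 scale of the deposited values, and precision is limited by there being 4 arrays. Of 7 epithelial markers, 6 had a usable probe set and all 6 lay above the array median on every array, among them the basal keratin gene KRT5 at 9.49 to 10.25. Of 6 leukocyte markers 5 had one, and PTPRC, the pan-leukocyte marker, stood at 0.46 to 0.49 and CD3E, of T cells, at 0.58 to 0.80, under the filter on dim genes. The other 3 were above the filter: the monocyte markers CD14 at 2.05 to 2.26, near the array medians, and ITGAM at 1.22 to 1.38, and CD68, a lysosomal protein used as a macrophage marker but made in many cells, at 7.28 to 9.03. None (0) of the 4 endothelial markers and 1 of 5 fibroblast markers, COL1A1 at 3.42 to 3.64, lay above the array median on every array.

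The 10 chemokine genes differed in how far they stood above the dim end of the scale. CXCL8, CXCL1 and CCL20 lay above the array median on every array, CXCL2 and CXCL16 on some, and CXCL3, CXCL5, CXCL10, CXCL11 and CCL2 on none, where a fall may not show. CXCL11, with a mean of 0.78, was under the filter of 0.997 and was not tested, which left 9 genes, with CXCL10 just inside it at a mean of 1.04. Over the 4 arrays the values spanned 3.43-fold for CXCL8, 3.19-fold for CCL20 and 2.23-fold for CXCL1, against 1.11-fold to 1.79-fold for the other 7. As probe sets differ in brightness, levels were compared between arrays and not between genes.

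**Figure D1:**
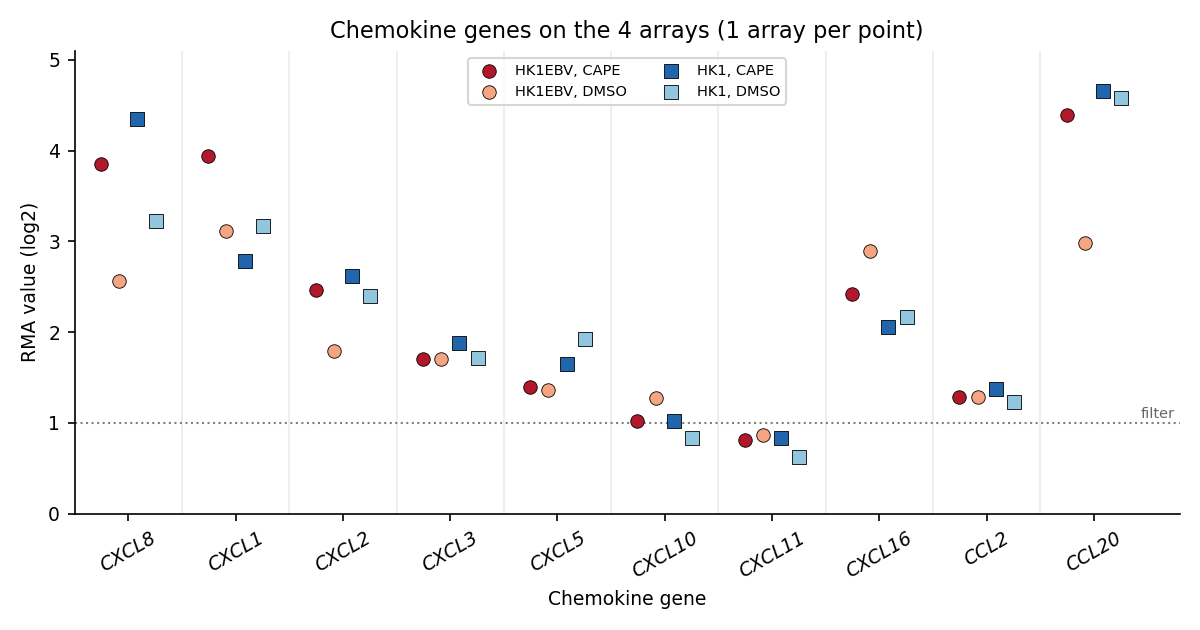
RMA values (log2, vertical axis) of the 10 chemokine genes on the 4 arrays, 1 point for each array, with the filter on dim genes at 0.997 as a dotted line. CXCL8 with CAPE sits above CXCL8 with DMSO in both lines, CXCL1 is highest in HK1EBV with CAPE, and CCL20 is low in HK1EBV with DMSO alone.

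The first comparison set CAPE against DMSO within each line. CXCL8 was the 1 chemokine gene at least 2-fold higher with CAPE in both lines. CCL20 and, to a lesser degree, CXCL1 and CXCL2 were higher with CAPE in HK1EBV, where CCL20 passed 2-fold. No chemokine gene (0) was 2-fold lower with CAPE in either line. Among genes tested, 2 of 9 chemokine genes were at least 2-fold apart either way in HK1EBV, against 1.22% of all 15194 genes, and 1 of 9 in HK1, against 1.36%. With 1 array a group these counts had no replicate check, and the chemokine genes were chosen with earlier results known.

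CXCL8 encodes interleukin 8, the main neutrophil attractant of epithelia. Its log2 value was 3.85 in HK1EBV and 4.35 in HK1 with CAPE, against 2.57 in HK1EBV and 3.22 in HK1 with DMSO. Both CAPE arrays were above both DMSO arrays, and the order from high to low was HK1 with CAPE, HK1EBV with CAPE, HK1 with DMSO and HK1EBV with DMSO. The difference was 1.29 on the log2 scale (2.44-fold) in HK1EBV and 1.12 (2.18-fold) in HK1. The mean over both lines came to 1.20 ± 0.12 (limma's moderated SE, n = 2), a 2.30-fold difference, with an adjusted p = 0.0672 in limma with Benjamini-Hochberg adjustment over all genes tested. In such bulk RNA a difference in the number of expressing cells and one in RNA per cell cannot be told apart. CXCL8 thus did not pass the threshold of 0.05.

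That fit called 1 gene of 15194 (0.00658%), which was no chemokine gene, so that 0 of 9 chemokine genes were called. At an unadjusted p under 0.05 it had 2 of 9, CXCL8 and CXCL2, against 19.5% of all genes. The fit has 1 residual degree of freedom, and its calls hung on 57 genes whose residual was 0. Of these, 46 had the same value on at least 2 arrays and 40 had a mean under 2. Leaving these genes out selects on the residual from which limma estimates its variance prior. The degrees of freedom of that prior then rose from 3.9 to 9.89, which lowers p-values. Left out, 8.21% of 15137 genes passed for CAPE, and of the 9 chemokine genes CXCL8 alone did (limma adjusted p = 0.000751). Over 9 alternatives the adjusted p of CXCL8 ran from 0.000751 to 0.484 and was under 0.05 in 5, while its mean change stayed at 1.20.

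CXCL1, CXCL2 and CXCL3 encode the GRO chemokines, close copies of one another, and reads of one by the probes of another were not tested. CXCL1 stood at 3.94 in HK1EBV and 2.78 in HK1 with CAPE, against 3.12 in HK1EBV and 3.17 in HK1 with DMSO. The groups overlapped, since HK1EBV with CAPE was the highest array and HK1 with CAPE the lowest. The CAPE difference was 0.82 (1.77-fold) in HK1EBV and -0.38 in HK1, with a mean of 0.22 ± 0.29 (moderated SE, n = 2; limma adjusted p = 0.757).

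CXCL2 stood at 2.47 in HK1EBV and 2.62 in HK1 with CAPE, against 1.79 in HK1EBV and 2.40 in HK1 with DMSO. The CAPE arrays did not overlap the DMSO arrays, as for CXCL8. Such non-overlap either way held for 2 of 9 chemokine genes, against 36.0% of all genes tested, so by this measure they do not stand apart. The differences of CXCL2 were 0.67 (1.59-fold) in HK1EBV and 0.22 in HK1, with a mean of 0.45 ± 0.15 (moderated SE, n = 2; limma adjusted p = 0.207). CXCL3 hardly moved, with 1.70 in HK1EBV and 1.88 in HK1 with CAPE, against 1.70 in HK1EBV and 1.71 in HK1 with DMSO. Its value was one and the same on both HK1EBV arrays, as occurs among dim genes after RMA.

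CXCL5, which encodes the epithelial neutrophil attractant ENA-78, stood at 1.39 in HK1EBV and 1.65 in HK1 with CAPE, against 1.37 in HK1EBV and 1.92 in HK1 with DMSO. Its CAPE differences of 0.03 in HK1EBV and -0.27 in HK1 averaged -0.12 ± 0.13 (moderated SE, n = 2; limma adjusted p = 0.680). Among these 5 attractants of neutrophils, whose promoters all held GGAATTTCC, the difference in HK1EBV thus ran from 0.00 in CXCL3 to 1.29 in CXCL8, and that in HK1 from -0.38 in CXCL1 to 1.12 in CXCL8.

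CCL20, the ligand of CCR6, stood at 4.39 in HK1EBV and 4.65 in HK1 with CAPE, against 2.98 in HK1EBV and 4.58 in HK1 with DMSO. HK1EBV with DMSO was the 1 low array, and HK1EBV with CAPE, the lowest of the others, was 0.26 under HK1 with CAPE, the highest. The difference was 1.41 (2.66-fold) in HK1EBV and 0.07 in HK1, with a mean of 0.74 ± 0.32 (moderated SE, n = 2; limma adjusted p = 0.302). CXCL16, the membrane-bound ligand of CXCR6, was the 1 chemokine gene lower with CAPE in both lines, at 2.42 in HK1EBV and 2.06 in HK1 with CAPE, against 2.89 in HK1EBV and 2.17 in HK1 with DMSO. Its differences were -0.47 in HK1EBV and -0.11 in HK1 (mean -0.29 ± 0.14, moderated SE, n = 2; limma adjusted p = 0.331).

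The interferon-induced CXCL10 stood at 1.02 in HK1EBV and 1.02 in HK1 with CAPE, against 1.28 in HK1EBV and 0.84 in HK1 with DMSO. CXCL11 stood at 0.81 in HK1EBV and 0.83 in HK1 with CAPE, against 0.87 in HK1EBV and 0.63 in HK1 with DMSO. Both pairs overlapped at the dim end of the scale. CCL2, which encodes the monocyte attractant MCP-1, stood at 1.28 in HK1EBV and 1.37 in HK1 with CAPE, against 1.28 in HK1EBV and 1.23 in HK1 with DMSO. The limma adjusted p was 0.938 for CXCL10 and 0.800 for CCL2, and a difference was not detectable at these levels.

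Over the 9 chemokine genes tested, the median CAPE difference was 0.03 in HK1EBV and 0.15 in HK1, beside 0.00 and 0.02 for all genes tested. CD68, of the leukocyte markers, was higher with CAPE by 1.14 in HK1EBV and 1.23 in HK1, so it moved with CXCL8, and its part in the result was not tested. CD14 differed by -0.12 in HK1EBV and -0.05 in HK1, and ITGAM by -0.09 and 0.03. The mean log2 value of the 5 leukocyte markers was 2.68 in HK1EBV and 2.64 in HK1 with CAPE, against 2.53 in HK1EBV and 2.43 in HK1 with DMSO. PTPRC, at 0.49 in HK1EBV and 0.49 in HK1 with CAPE and at 0.49 in HK1EBV and 0.46 in HK1 with DMSO, stayed near 0 on every array.

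**Figure D2:**
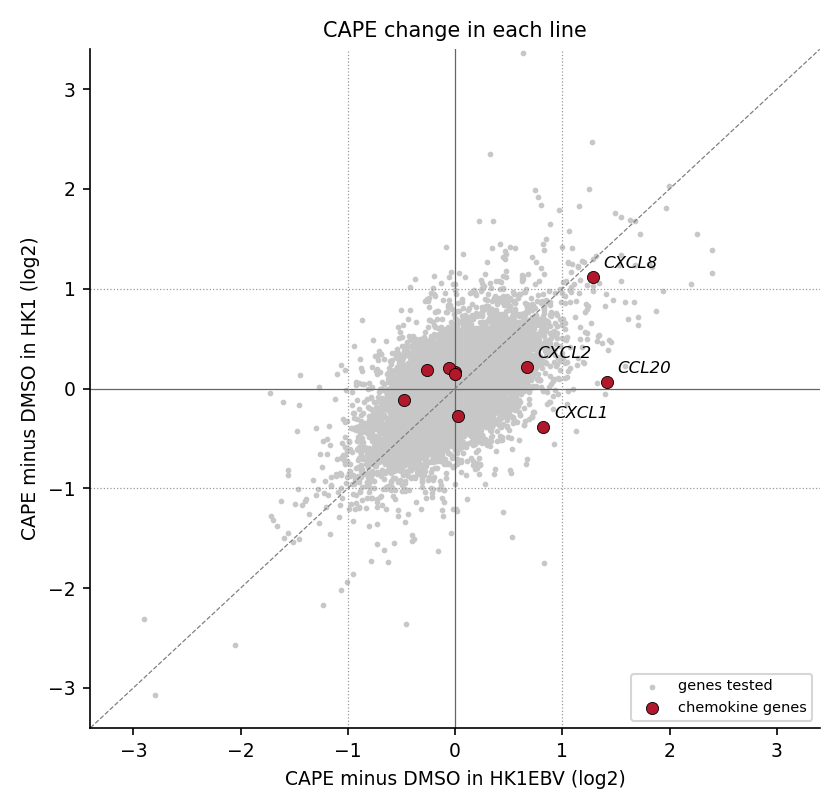
CAPE minus DMSO on the log2 scale in HK1EBV (horizontal) and HK1 (vertical) for all genes tested (grey) and the 10 chemokine genes (red), with 2-fold marked by dotted lines and equal change by the dashed line. CXCL8 lies past 2-fold on both axes at 1.29 and 1.12, while CCL20, at 1.41 and 0.07, and CXCL1, at 0.82 and -0.38, lie to the right near the horizontal axis.

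How far the CAPE difference itself varied between the lines was given as a value, since it uses up all 4 arrays. It was larger in HK1EBV than in HK1 by 1.34 (2.54-fold) for CCL20 and by 1.21 (2.31-fold) for CXCL1. These were 2 of 9 chemokine genes at least 2-fold apart by this measure, against 0.770% of all genes tested. For CXCL8 the lines were 0.16 apart and for CXCL2 0.45. The other 6 ran from -0.44 for CXCL10 to 0.30 for CXCL5. In the limma fit this same quantity is the residual, so it widens the moderated SE of CCL20 and CXCL1.

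The next comparison set HK1EBV against HK1. With DMSO, CCL20 was 3.04-fold lower in HK1EBV, at 2.98 in HK1EBV against 4.58 in HK1, a log2 difference of -1.60. It was the 1 of 9 chemokine genes at least 2-fold apart with DMSO, against 1.87% of all genes. With CAPE the CCL20 difference was -0.26, at 4.39 in HK1EBV against 4.65 in HK1. There CXCL1 was instead the 1 of 9 at least 2-fold apart, against 2.05% of all genes, at 3.94 in HK1EBV against 2.78 in HK1 (2.23-fold), where with DMSO it differed by -0.05.

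CXCL8 was lower in HK1EBV with both treatments, by -0.49 with CAPE and -0.66 with DMSO, a mean of -0.58 ± 0.12 (moderated SE, n = 2 treatments; limma adjusted p = 0.0740). CXCL2 differed by -0.15 with CAPE and -0.60 with DMSO, and CXCL5 by -0.25 with CAPE and -0.56 with DMSO. The line means were 0.56 ± 0.29 for CXCL1, -0.38 ± 0.15 for CXCL2 and -0.41 ± 0.13 for CXCL5 (moderated SE, n = 2; limma adjusted p = 0.340, 0.227 and 0.161). CXCL3, CXCL10 and CCL2 had means of -0.10, 0.22 and -0.02 (limma adjusted p = 0.690, 0.454 and 0.949). CXCL16 was higher in HK1EBV by 0.36 with CAPE and 0.73 with DMSO (mean 0.54 ± 0.14, moderated SE, n = 2; limma adjusted p = 0.108). The mean for CCL20 was -0.93 ± 0.32 (moderated SE, n = 2; limma adjusted p = 0.183).

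None (0) of the 9 was called for the lines, where limma called 440 of 15194 genes (2.90%). At an unadjusted p under 0.05 there were 4 of 9, CXCL8, CXCL5, CXCL16 and CCL20, against 23.1% of all genes. Without the 57 genes of zero residual CXCL8 and CCL20, lower in HK1EBV, and CXCL16, higher there, passed (limma adjusted p = 0.0172, 0.0299 and 0.0300), 3 of 9 against 11.6% of 15137 genes. In 4 of 9, CXCL3, CXCL5, CXCL16 and CCL20, the HK1EBV arrays did not overlap the HK1 arrays, against 42.3% of all genes. The median line difference of the 9 was -0.15 with CAPE and -0.05 with DMSO, beside 0.00 and 0.01 for all genes tested.

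**Figure D3:**
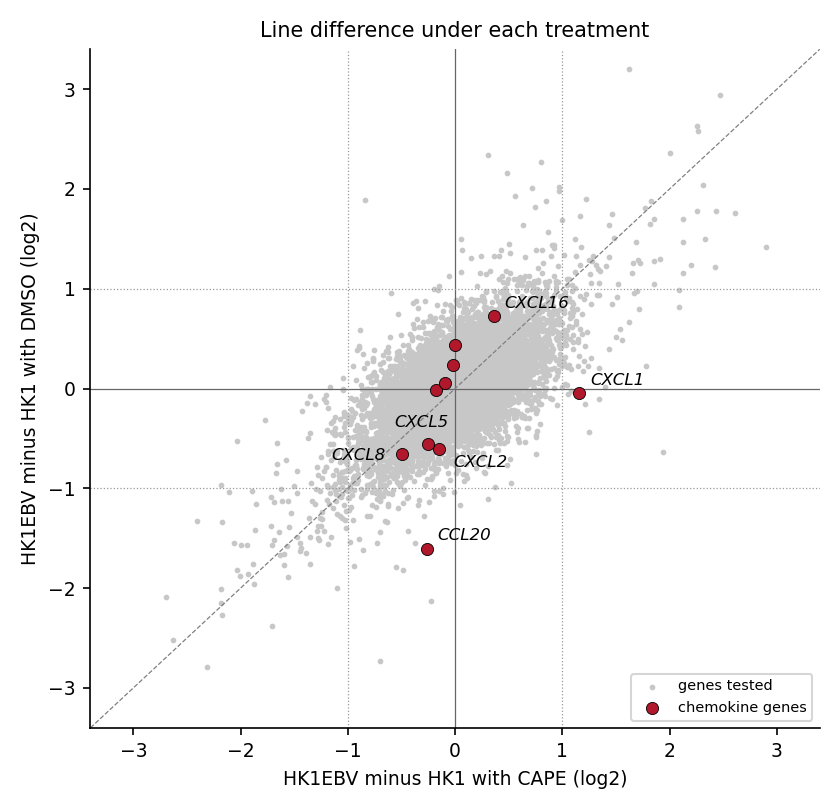
HK1EBV minus HK1 on the log2 scale with CAPE (horizontal) and with DMSO (vertical) for all genes tested (grey) and the 10 chemokine genes (red), with 2-fold marked by dotted lines and equal difference by the dashed line. CXCL1 stands apart to the right at 1.16 and -0.05, CCL20 below at -0.26 and -1.60, and CXCL16 is higher in HK1EBV with both treatments.

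The 7 chemokine genes of chromosome 4 lie in 2 groups, and their neighbours were read in the order of the RefSeq gene table. Between CXCL8 and CXCL1 lie CXCL6, another neutrophil attractant, and PF4V1, a platelet factor variant. With CAPE, CXCL6 differed by 0.01 in HK1EBV and 0.02 in HK1, and PF4V1 by -0.21 and -0.07. RASSF6, on the other side of CXCL8, differed by -0.13 in HK1EBV and 0.22 in HK1. MTHFD2L, next to CXCL2, differed by -0.12 in HK1EBV and -0.21 in HK1. The differences of RASSF6 and CXCL6, on either side of CXCL8, were thus smaller than that of CXCL8 in both lines. CXCL6, at 1.17 to 1.21, and PF4V1, at 1.36 to 1.58, lay under the array median on every array. A difference may not show at such levels, so they do not tell whether the CAPE difference is particular to CXCL8. MTHFD2L in HK1 differed by nearly as much as CXCL2 did there (0.22), with the opposite sign. In the second group SCARB2, a lysosomal membrane protein gene, was higher with CAPE by 0.63 in HK1EBV and 0.42 in HK1, and NUP54, between it and CXCL11, differed by -0.34 and -0.24.

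**Figure D4:**
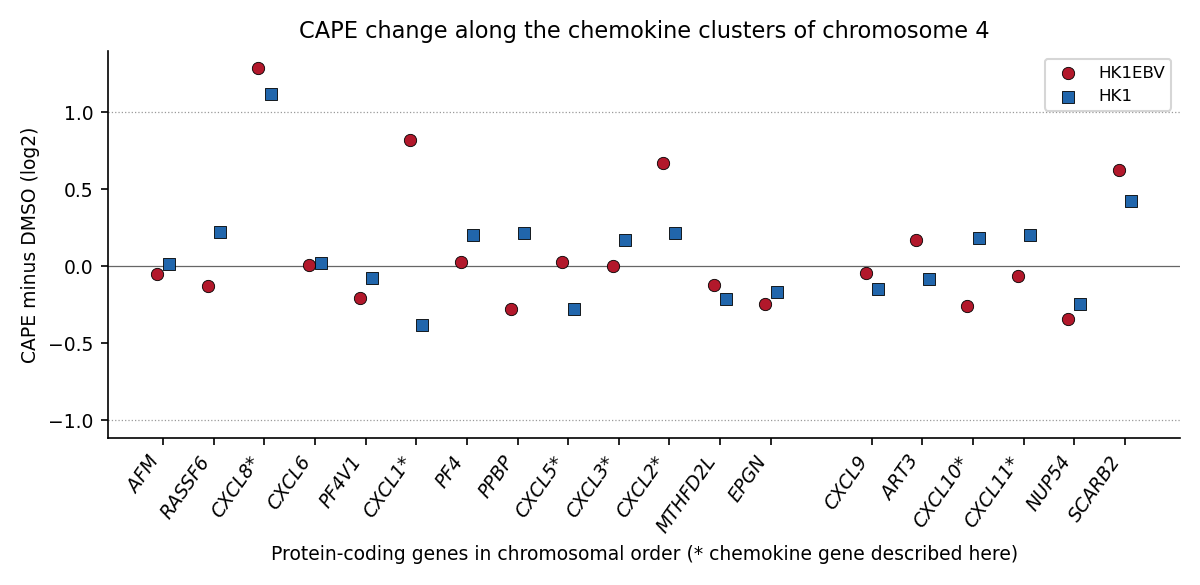
CAPE minus DMSO (log2, vertical axis) in HK1EBV and HK1 for the protein-coding genes around the chemokine groups of chromosome 4, in chromosomal order and not to scale, 1 array pair for each point. CXCL8 is past 2-fold in both lines, while CXCL6, PF4V1, PF4 and CXCL3 between and beside the others lie within 0.21 of 0. CXCL6, PF4V1, PF4 and CXCL3 were under the array median on every array, where a difference may not show.

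By the distance between centred log2 values over the 4 arrays, the genes most like CXCL8 were NR1D1, DDIT4 and BHLHE40, at root mean square distances of 0.10, 0.12 and 0.12. Those most like CXCL1 were PSAT1, ADPRM and H2BC5 (0.07, 0.08 and 0.10), and those most like CCL20 were GPR180, NPC1 and THSD1 (0.19, 0.21 and 0.24). With 4 arrays a close match is easily met, and no more is read from it.

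Genes that make, receive or control chemokines came from lists chosen with earlier results of these data known. None (0) of their members passed for CAPE in the limma fit (0.00658% of all genes). Of the other chemokine ligands 18 of 34 were tested. None (0) was 2-fold apart with CAPE in either line, against 1.22% of all genes tested in HK1EBV and 1.36% in HK1. The largest mean change was 0.23 for CCL26, an eotaxin, at -0.12 in HK1EBV and 0.57 in HK1. Of the chemokine receptors 10 of 23 were tested and 0 were 2-fold apart with CAPE, against the same shares. With so few genes a count of 0 lies near these shares. Most of both lists were dim, where a difference may not show. Above the array median on every array lay 3 of 30 ligands and 1 of 21 receptors with a probe set. The receptor genes of the neutrophil attractants, CXCR1 at 0.39 to 0.63 and CXCR2 at 0.60 to 0.69, lay under the filter on every array.

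Of 18 tested NF-κB subunits and regulators, 2 were at least 2-fold higher with CAPE in HK1EBV and 3 in HK1, and 0 were 2-fold lower, where 1.22% of all genes tested in HK1EBV and 1.36% in HK1 were 2-fold apart either way. The feedback inhibitor gene TNFAIP3 was higher by 1.35 in HK1EBV and 1.06 in HK1, and the subunit gene NFKB2 by 1.17 and 1.08, much as CXCL8. TRAF1, a signalling adaptor and NF-κB target, was higher by 0.47 in HK1EBV and 1.30 in HK1. NFKBIA, the inhibitor IκBα, was higher by 0.54 in HK1EBV and 0.32 in HK1. The median of the list was 0.17 in HK1EBV and 0.03 in HK1, beside 0.00 and 0.02 for all genes. Without the genes of zero residual 3 of 18 passed as higher and 0 as lower, against 8.21% of all genes.

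AP-1 and C/EBP are families of which some members are known to bind beside NF-κB at the CXCL8 promoter, and binding was not measured here. Of 13 factors of these families, 1 was 2-fold higher with CAPE in HK1EBV and 3 in HK1, against the same 1.22% and 1.36% of all genes either way. The list medians were 0.31 in HK1EBV and 0.41 in HK1, beside 0.00 and 0.02 for all genes. DDIT3 (CHOP, a stress-induced C/EBP factor) had CAPE differences of 2.40 in HK1EBV and 1.39 in HK1, and CEBPB of 0.88 and 0.45. ATF3 was higher with CAPE by 0.80 in HK1EBV and 1.21 in HK1, and the AP-1 subunit gene JUN by 0.67 and 0.45. FOSL1, another AP-1 subunit, went the other way, by -0.83 in HK1EBV and -0.62 in HK1. Without the genes of zero residual 4 of 13 passed as higher and 1, FOSL1, as lower, against 8.21% of all genes either way.

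Of 16 inducers and receptors of inflammation, IL1B alone was 2-fold lower with CAPE, in both lines, and 0 were 2-fold higher, against 1.22% of all genes in HK1EBV and 1.36% in HK1 either way. IL1B, the interleukin 1β gene and an inducer of CXCL8, stood at 7.48 in HK1EBV and 8.06 in HK1 with CAPE, against 8.92 in HK1EBV and 9.23 in HK1 with DMSO. CXCL8 and IL1B thus moved opposite ways on these arrays. TNF, which induces the same chemokines, stood at 1.09 to 1.32, under the array median on all 4. Of 7 factors of AU-rich mRNA decay, which act on chemokine transcripts, HNRNPD differed by -1.04 in HK1EBV and -0.72 in HK1, and ZFP36, which encodes tristetraprolin, by 0.60 and 0.56. Of 18 genes of the interferon axis 2 were 2-fold higher with CAPE in HK1EBV and 0 in HK1, against 1.22% and 1.36% of all genes either way. They were OAS1, an antiviral enzyme gene, by 1.12 in HK1EBV and 0.71 in HK1, and IRF9, a subunit of the interferon-activated factor ISGF3, by 1.19 in HK1EBV and 0.27 in HK1.

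Between the lines 11 genes of these lists passed the limma test, where 2.90% of all genes did. Without a filter on dim genes limma called 0 genes for the lines (3519 at an unadjusted p under 0.05), so these calls hold at the filter used. In HK1EBV the NF-κB genes TNFAIP3 and NFKB1 fell (2 of 18), as did the AP-1 genes JUN and FOSL1 (2 of 13), LIF and TLR3 (2 of 16 inducers and receptors) and the scavenging receptor gene ACKR3 (1 of 10 receptors). TNFAIP3 differed by -1.17 ± 0.13 and JUN by -1.08 ± 0.12 (moderated SE of limma, n = 2 treatments; adjusted p = 0.0363 for both). Among 18 genes of the interferon axis OAS1, IFIT1 and IFIT3 rose (3 of 18), and ZFP36 rose among the decay factors (1 of 7). OAS1 was higher in HK1EBV by 1.46 ± 0.14 (moderated SE, n = 2; limma adjusted p = 0.0311). CXCL10 and CXCL11, themselves induced by interferons, stayed at the dim end on the same arrays, with line differences of 0.00 and -0.02 with CAPE and 0.44 and 0.24 with DMSO.

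**Figure D5:**
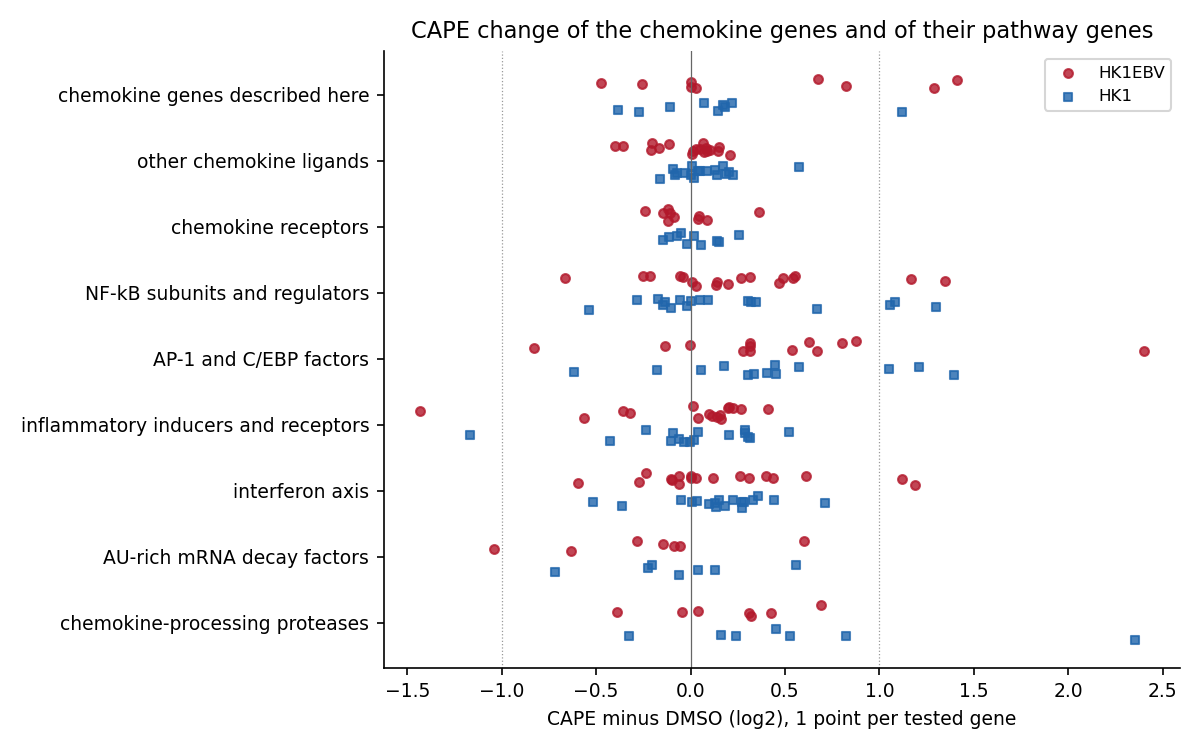
CAPE minus DMSO (log2, horizontal axis) in HK1EBV and HK1, 1 point for each tested gene and line, for the chemokine genes described here and the lists of genes around them, with 2-fold marked by dotted lines. The other ligands and the receptors, most of them dim, lie within 0.58 of 0. CXCL8, CCL20 and members of the NF-κB and AP-1 lists lie past 1 in at least 1 line. So do, in either direction, members of the inflammatory, interferon, mRNA decay and protease lists, with MMP13 at 2.35 in HK1.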

How the data were processed

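RNA of 4 samples, 1 for each group, was hybridised to single-colour arrays. The log2 values used here were deposited as made by RMA, a method of background correction, normalization between arrays and probe summary, per the submitters' processing notes. The sources used here state neither a version nor the log base, which was taken as log2, and values ran from -0.19 to 11.9. Of 25800 probe sets, 18612 carried 1 gene symbol and were used. Entrez numbers tied 18583 of them to RefSeq genes (GRCh38.p14). The brightest probe set stood for its gene, and 15194 genes with a mean of at least 0.997, the 25th percentile over probe sets, were tested.

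limma 3.58.1 in R 4.3.3 fitted line and treatment together to the 4 arrays (lmFit, eBayes), two-sided, with Benjamini-Hochberg adjustment over all genes tested and a threshold of 0.05. It was tested on simulated data with the same CAPE change in both lines and no repeated values. The real arrays differ in both respects, so that test does not check the p-values given here. The single residual of the fit holds any unequal CAPE change of the lines. Differences within 1 line or 1 treatment had no test, and 2-fold was counted. Nothing says that samples were grown separately. The p-values and moderated SEs rest on the single residual and on limma's variance prior over all genes, and not on a spread between replicates. RefSeq promoters (GRCh38.p14) were searched for 5 motifs on both strands.

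The chemokine genes, lists and tests were chosen with earlier results of these data known. Named were the 10 chemokine genes, up to 4 genes of each list with the largest mean CAPE change and up to 3 with the largest mean line difference, the 3 genes closest in pattern to each chemokine gene spanning 2-fold, and neighbours on chromosome 4. CXCR1, CXCR2, TNF, ADAM10, PTPRC, CD3E and IFIT3 fall outside that rule and were chosen after their values were seen. The alternatives tried were other filters, quantile normalization, a shift of each array to a common median, averaged probe sets, other variance priors, leaving out genes of zero residual and leaving out the other factor.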

Additional observations from a re-analysis of the deposited data

Results flagged for a closer look

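For some chemokine genes the arrays moved opposite ways, with 1 array in each group, so the difference was not tested. The CAPE change was positive in one line and negative in the other for CXCL1, CXCL5, CXCL10 and CXCL11. That in HK1EBV minus that in HK1 was 1.21 for CXCL1, 0.30 for CXCL5, -0.44 for CXCL10 and -0.26 for CXCL11. The difference between the lines had opposite signs with CAPE and with DMSO for CXCL1, CXCL10, CXCL11 and CCL2, where the same measure was -0.15 for CCL2. CXCL1 alone among them was over 2-fold apart, and CXCL5, CXCL10, CXCL11 and CCL2 lay under the array median on all 4 arrays. Some of these signs rest on values near 0, such as the CXCL5 change of 0.03 in HK1EBV. For CXCL10 the line difference with CAPE was -0.003.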

How the results depend on the processing

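The counts of genes passing limma, 1 for CAPE and 440 for the lines, moved by over 1.5 times with most settings. For CAPE and for the lines they were 0 and 0 without a filter (2992 and 3519 genes at an unadjusted p under 0.05), 894 and 1296 with a filter at the 50th percentile, 1006 and 1526 with arrays shifted to one median, and 755 and 1324 after quantile normalization. They were 379 and 959 with a robust prior, 1243 and 1756 without the 57 genes of zero residual, and 0 and 0 without the other factor as a term (1364 and 2000 at an unadjusted p under 0.05). With a prior that follows the level, the count for CAPE was 7. The split for the lines, 200 higher and 240 lower, turned to 865 and 661 with the median shift. It also turned with the 50th percentile filter (671 and 625), quantile normalization (666 and 658) and the robust prior (492 and 467). Without the genes of zero residual it was 947 and 809. The median shift turned 2 splits of genes 2-fold apart as well. That between the lines with CAPE became 168 and 150, beside 141 and 171. That in the CAPE change between lines became 70 and 56, beside 52 and 65. Of 359 values of chemokine genes under these settings 344 kept their side of the threshold and direction or, where untested, moved by less than the residual SD of the fit, and 15 newly passed 0.05. Those were CXCL8 for CAPE and for the lines (5 settings each), CXCL16 for the lines (4) and CCL20 for the lines (1). The 2-fold counts moved by less than 1.5 times, and in each the same chemokine genes were past 2-fold under all 5 settings run. The fit with both factors sets CAPE against DMSO within each line, and without that pairing the adjusted p of CXCL8 for CAPE was 0.484. No further replicate block could be set with 1 array a group, and leaving out an array leaves that fit no residual degree of freedom, so no such values are given. Dim genes limit what can be seen, since 5 of 10 chemokine genes lay under the array median throughout.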

Other observations

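Among proteases that cut chemokines, MMP13, a collagenase gene, stood at 7.85 in HK1EBV and 7.54 in HK1 with CAPE, against 7.53 in HK1EBV and 5.19 in HK1 with DMSO, so that HK1 with DMSO was the 1 low array. Its CAPE difference was 0.32 in HK1EBV and 2.35 in HK1. That is the reverse of CCL20, for which HK1EBV with DMSO was the 1 low array. ADAM17, a sheddase gene, was higher with CAPE by 0.69 in HK1EBV and 0.45 in HK1, and ADAM10, the sheddase of CXCL16, differed by -0.05 and -0.32. MMP13, ADAM17 and ADAM10 did not pass limma for CAPE (adjusted p = 0.223, 0.110 and 0.504). Without the genes of zero residual MMP13 and ADAM17 passed (limma adjusted p = 0.0332 and 0.0260) and ADAM10 did not, and with MMP3 3 of 7 proteases passed as higher, against 8.21% of all genes either way.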
